A study of Mus musculus with 24 samples.

Results

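The regions described here carried an H3K4me1 peak in wild-type day 6 embryoid bodies (EB) and none in wild-type embryonic stem (ES) cells. Overlapping peaks of the 4 wild-type H3K4me1 lists (EB replicates 1 and 2, ES replicates 1 and 2) on chromosomes 1 to 19, X and Y were merged into 33372 regions. A region was called EB-only when both EB lists and neither ES list had a peak in it, which gave 4678 regions, or 14% of all. The regions were thus chosen by H3K4me1 peaks of those 4 lists, which are given as a description with no test. The study profiled PRDM16, H3K4me1 and H3K4me2 by CUT&RUN, in which an antibody-tethered nuclease releases chromatin fragments for sequencing, in mouse cells of C57BL/6 background. The 12 groups of 2 libraries each were Prdm16 KO EB, wild-type EB, Prdm16 KO ES cells and wild-type ES cells, with each of the 3 antibodies. ES cells were grown with LIF and serum on Matrigel, and the EB medium listed serum and no LIF. The labels give no allele or clone for the KO and name no separate cultures behind the libraries of a group. The p-values therefore measure the spread between these libraries alone, which may be technical.

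H3K4me1 is placed on nucleosomes of enhancers, both active ones and ones that are only primed, and on the flanks of promoters. H3K4me2 covers promoters and the more active enhancers. When ES cells lose LIF and aggregate, they leave naive pluripotency and form a mixture of epiblast, neural, mesodermal and endodermal cells, and distal enhancers are the elements whose marks turn over most during such a change. PRDM16, a PR domain protein with zinc fingers, is known for its part in brown fat, neural stem cells and blood stem cells. EB are a mixture of cells, so a mark in fewer cells and a weaker mark in every cell cannot be told apart.

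Regions and genes are placed on mm10, and promoters are those of RefSeq on GRCm38.p6, each running from 250 bases before to 50 bases after the start. Of 21262 promoters in that table, 287 of 241 genes lay inside an EB-only region. The 4 shown are those of genes on the lineage and signalling lists described further on: Myh7, a cardiac and slow-muscle myosin heavy chain, Wnt3a, a Wnt ligand of the primitive streak, Id2, a BMP-induced inhibitor of bHLH factors, and Krt7, a keratin of trophoblast and simple epithelia. Both strands were searched for 5 motifs: the homeodomain core TAATTA, the GATA factor core AGATAA, the E-box letters CAGCTG, a further E-box with the letters CACGTG, and the core letters of TCF and SOX sites, ACAAAG. Capitals mark the only match among these 4 promoters.
Myh7 promoter, chr14:54994577-54994876, minus strand: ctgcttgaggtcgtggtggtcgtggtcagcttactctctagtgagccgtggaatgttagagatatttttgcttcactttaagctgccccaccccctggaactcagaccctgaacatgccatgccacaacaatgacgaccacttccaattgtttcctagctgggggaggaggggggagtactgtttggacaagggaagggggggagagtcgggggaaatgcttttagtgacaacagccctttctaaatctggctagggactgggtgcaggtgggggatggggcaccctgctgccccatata
Wnt3a promoter, chr11:59290702-59291001, minus strand: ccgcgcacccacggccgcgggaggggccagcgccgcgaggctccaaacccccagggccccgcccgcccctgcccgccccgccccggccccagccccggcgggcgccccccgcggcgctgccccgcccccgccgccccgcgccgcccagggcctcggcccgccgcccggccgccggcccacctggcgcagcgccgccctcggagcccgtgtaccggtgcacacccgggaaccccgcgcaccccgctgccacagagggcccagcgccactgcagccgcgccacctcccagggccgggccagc
Id2 promoter, chr12:25096043-25096342, minus strand: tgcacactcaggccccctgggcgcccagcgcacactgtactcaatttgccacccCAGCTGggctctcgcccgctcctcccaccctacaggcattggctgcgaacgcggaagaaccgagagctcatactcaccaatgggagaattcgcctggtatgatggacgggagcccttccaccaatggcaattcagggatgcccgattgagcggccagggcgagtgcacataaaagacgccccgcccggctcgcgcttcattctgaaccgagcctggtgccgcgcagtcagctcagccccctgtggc
Krt7 promoter, chr15:101412153-101412452, plus strand: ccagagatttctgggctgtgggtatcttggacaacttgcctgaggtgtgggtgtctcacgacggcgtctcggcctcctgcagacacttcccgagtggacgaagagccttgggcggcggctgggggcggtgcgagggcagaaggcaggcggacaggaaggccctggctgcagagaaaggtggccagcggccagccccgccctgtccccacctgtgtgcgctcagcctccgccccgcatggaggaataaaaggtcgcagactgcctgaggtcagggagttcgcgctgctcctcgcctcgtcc
The 4 differed in base composition, with 5 CG dinucleotides in the Myh7 promoter, 21 each in those of Id2 and Krt7, and 45 in that of Wnt3a. The 287 promoters inside EB-only regions had a median of 8 CG dinucleotides, against 15 for the 386 in ES-only regions, 13 for the 318 in regions of all 4 wild-type lists and 13 for all promoters. CAGCTG was found in 26.8% of the promoters inside EB-only regions, against 19.9% in ES-only regions, 19.2% in regions of all 4 lists and 15.6% of all promoters. ACAAAG was in 19.9% of those inside EB-only regions and 16.8% of all. The shares for TAATTA were 2.79% inside EB-only regions and 4.53% of all. For AGATAA they were 9.06% and 9.65% in the same order, and for CACGTG 5.92% and 7.84%.

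Of 1005 RefSeq miRNA hairpins, 17 overlapped 14 EB-only regions. Those of 6 well-studied miRNAs, picked after the overlap was seen, are shown as mature RefSeq sequences with the seed (bases 2 to 8) in capitals. No seed was shared among all 27 mature sequences of these hairpins.
miR-128-3p: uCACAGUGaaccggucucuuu
miR-200c-3p: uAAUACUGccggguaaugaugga
miR-26a-5p: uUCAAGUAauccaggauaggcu
miR-23a-3p: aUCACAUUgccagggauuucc
miR-27a-3p: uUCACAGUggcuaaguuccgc
miR-24-3p: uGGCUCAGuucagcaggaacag
The hairpin of miR-128-3p, a miRNA abundant in neurons, lies in its host gene Arpp21, in a region at chr9:112118312-112120499. That region had H3K4me1 scores of 128.62 and 158.6 in wild-type EB, an H3K4me2 peak in both wild-type EB and neither wild-type ES list, and no peak of either mark in any KO list. The miR-200c-3p region, chr6:124718194-124722123, had a peak in 1 of 2 KO EB H3K4me1 lists. miR-200c is known for holding cells in an epithelial state. The miR-26a-5p region in Ctdspl, chr9:119031408-119034941, had no KO EB H3K4me1 peak, and neither had chr8:84207855-84209884, which holds the miR-23a, miR-27a and miR-24-2 hairpins. Over all EB-only regions, 53.5% had none in either KO EB list. The miR-26a-5p region had an H3K4me1 peak in 1 KO ES list. The chr8 region scored only 54.62 in wild-type EB replicate 1 and had H3K4me2 in 1 wild-type ES list.

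All counts below rest on lists of called peaks, each with the authors' score, which was at least 50 and served only to rank peaks within a list. Scores of different lists share no known scale, so those given side by side are not compared. H3K4me1 lists held 5990 to 14082 peaks in EB and 12746 to 15435 in ES cells, with both KO EB lists, at 8943 and 5990 peaks, shorter than both wild-type EB lists, at 14082 and 13260. H3K4me2 lists held 13818 to 19246 peaks in EB and 22615 to 32874 in ES cells. Read depth is unknown, so a region without a peak is not a region without the mark. The label of the set holds only at the level of called peaks. The Prdm16 gene itself had 5 and 3 H3K4me1 peaks in KO EB and 3 and 4 in wild-type EB, and 7 and 6 in the KO ES libraries against 6 and 4 in wild-type ES. It had 0 and 0 H3K4me2 peaks in KO EB against 3 and 4 in wild-type EB, and 11 and 13 in the KO ES libraries against 8 and 6 in wild-type ES. Peak lists do not show the deleted sequence, so these counts do not check the KO, and 0 of the 12 merged regions inside it were EB-only.

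EB-only regions were mid-sized and mostly far from gene ends. Their median width was 2598 bp, from 424 to 11233 bp, and together they covered 13.6 Mb. Median scores were 87.6 and 84.0 in the 2 wild-type EB lists. Just outside the rule, regions with a peak in only 1 EB list and no ES list had medians of 64.6 and 62.7 in the list that held them. Regions with both EB lists and 1 ES list, 1075 in number, had ES medians of 71.7 and 70.6. The lowest EB scores among the members were 50.02 and 50.01, at the edge of what the lists contain. The rule bars an overlap with wild-type ES H3K4me1 peaks, and the median distance to the nearest of them was 30972 bp. Such a peak lay within 1000 bp of 84 of the 4678, within 10000 bp of 21.4% and within 50000 bp of 62.9%.

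Only 903 EB-only regions (19.3%, 95% Wilson interval 18.2 to 20.5%, counting error only) lay within 2500 bp of an end of a protein-coding gene, against 26.7% of all regions. The share was 27.9% for the 5412 ES-only regions and 36.2% for the 1700 regions of all 4 wild-type lists. A further 42.4% of EB-only regions lay inside a gene and 38.3% between genes. The gene table gives no exons, so exonic, intronic and UTR positions were not resolved. The median distance to the closest gene end was 27836 bp for EB-only regions, 11970.5 bp for ES-only regions and 11044 bp for regions of all 4 lists. Far sites made up much of the difference: 956 EB-only regions (20.4%) were over 100 kb from any gene end, against 8.74% of ES-only regions and 11.1% of regions of all 4 lists. Among chromosomes with more than 3 regions, the share of regions that were EB-only was highest on chromosome 6, at 16.6%, and lowest on the X, at 10.6%.

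**Figure D1:**
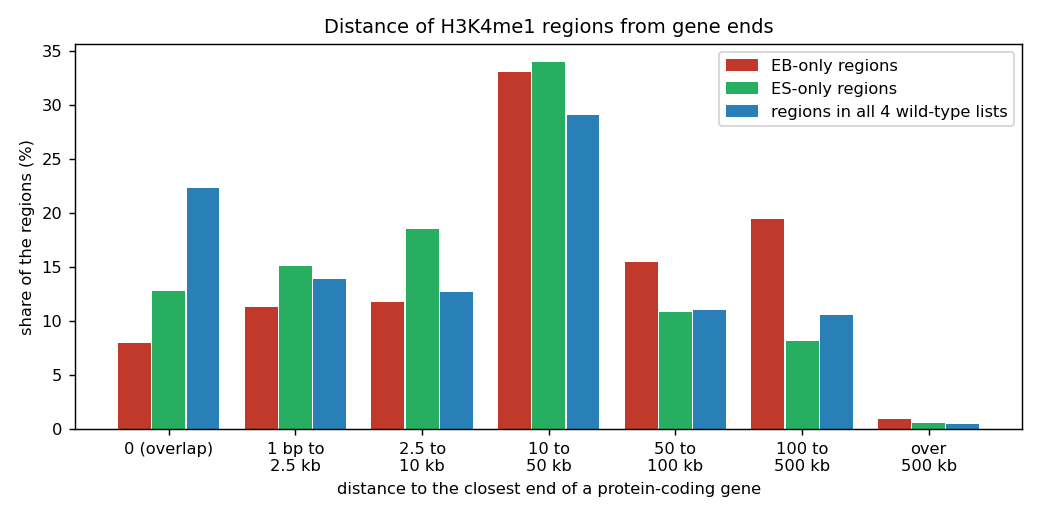
Share of EB-only, ES-only and all-4-list H3K4me1 regions (y axis, percent of each set) by distance to the closest end of a protein-coding gene (x axis, bins in bp and kb). EB-only bars are the lowest of the 3 at an overlap with a gene end, at 7.99%, and the highest from 100000 to 500000 bp, at 19.5%.

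The highest-ranked EB-only regions at gene ends lay at genes of several kinds. Rank is the lower of the 2 score percentiles in the wild-type EB lists. At the top stood Meis3, a TALE homeobox transcription factor of the hindbrain, with a region at chr7:16171575-16175738. It scored 172.47 and 141.44 in KO EB and 230.23 and 223.81 in wild-type EB for H3K4me1, and had an H3K4me2 peak in all 8 lists. Hes3, a bHLH repressor of the Hes family in neural progenitors, came next at chr4:152289597-152295045. Its region, which also reaches Icmt, scored 256.07 and 199.95 in wild-type EB, had no H3K4me1 peak in KO EB, and had no H3K4me2 peak in any of 8 lists. The first 2 regions thus differed in all 8 H3K4me2 lists and in both KO EB H3K4me1 lists.

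Zfp9, a zinc finger gene, Fam163a and Rph3al, a Rab effector of secretory vesicles, resembled Meis3 in having H3K4me2 in all 8 lists. At Fam163a (chr1:156202213-156205934) the H3K4me1 scores were 224.93 and 145.45 in KO EB and 189.17 and 326.15 in wild-type EB. Serpinf1, which encodes the secreted anti-angiogenic serpin PEDF, had H3K4me1 scores of 81.1 and 67.2 in KO EB and 192.63 and 200.93 in wild-type EB at chr11:75419689-75423107. Znrf2, an E3 ubiquitin ligase gene, had a peak in both KO ES H3K4me1 lists (120.64 and 113.16) although wild-type ES had none by the rule. Zp2, an egg-coat glycoprotein gene, and Bcl9, a beta-catenin cofactor of the Wnt pathway, had no peak of H3K4me1 in KO EB. At Bcl9 the region (chr3:97198191-97202123) began 1535 bp from the gene and scored 178.03 and 230.61 in wild-type EB. Of these 10 gene-end regions, 6 had a peak in both KO EB H3K4me1 lists, 1 (Rph3al) in 1 list and 3 in neither. The share with a peak in both was 20.1% over all EB-only regions and 40.02% in the strongest of 5 groups of score rank.

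The 10 highest-ranked regions away from gene ends mostly had no H3K4me2 peak in wild-type ES cells. Tjp1, which encodes the tight junction scaffold ZO-1, held the first, at chr7:65392033-65397056 inside the gene, with H3K4me1 scores of 165.97 and 150.47 in KO EB and 274.8 and 284.54 in wild-type EB. A region 163872 bp from Foxa2, the pioneer factor of endoderm and floor plate, lay at chr2:147875996-147879005 and scored 166.47 and 90.11 in KO EB and 248.49 and 242.19 in wild-type EB. Its H3K4me2 scores were 101.66 and 367.95 in wild-type EB, and no H3K4me2 peak was called there in KO EB, KO ES or wild-type ES. Nrxn3, a presynaptic neurexin gene, held a region whose H3K4me1 scores were 84.4 and 62.37 in KO EB and 325.89 and 249.9 in wild-type EB. Tspan12, a tetraspanin of Norrin and Frizzled signalling, held one with 206.41 and 153.83 in KO EB and 353.28 and 241.05 in wild-type EB. The others lay in or nearest to Tom1l1, Klhl14, Cntnap5a, Chrnb4, 4930519G04Rik and 4930544G11Rik. The last of these and Chrnb4, a nicotinic receptor subunit gene, had no H3K4me1 peak in KO EB. Among these 10 regions, 9 had no H3K4me2 peak in either wild-type ES list, against 6 of the 10 at gene ends. Over all EB-only regions, H3K4me2 was likewise rarer away from gene ends in a wild-type ES library, at 8.47 to 9.93% against 40.1 to 43.6% at gene ends.

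**Figure D2:**
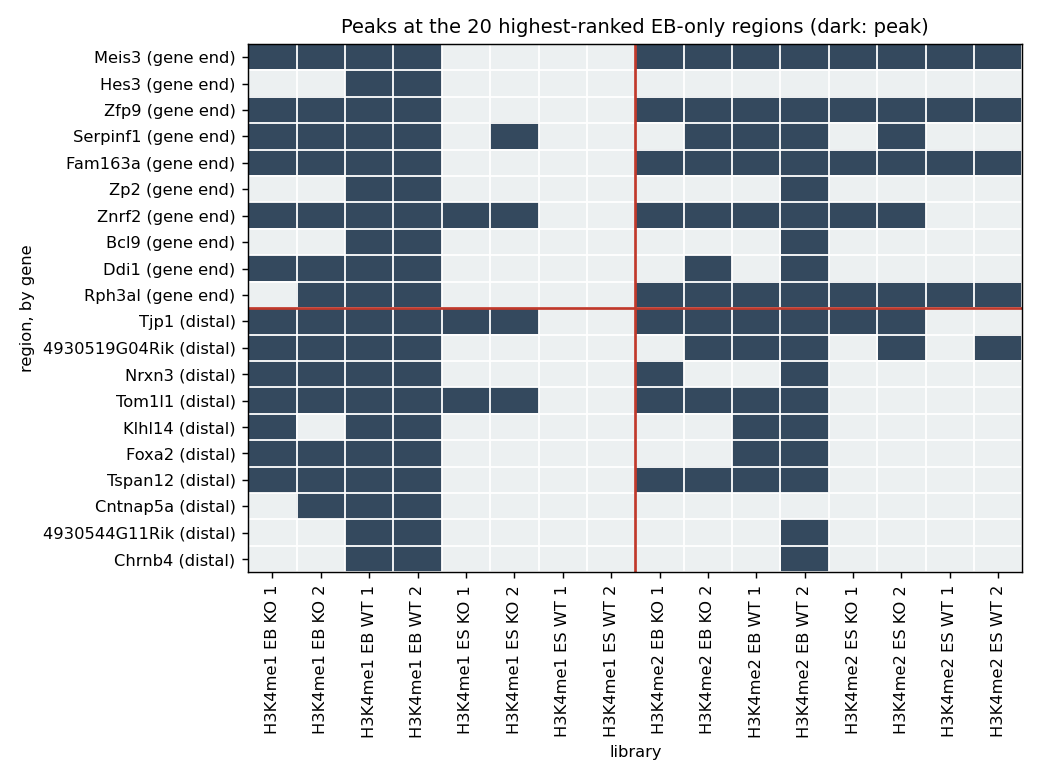
Called peaks (dark) at the 20 highest-ranked EB-only regions, 10 at gene ends above and 10 distal ones below the horizontal line, in the 8 H3K4me1 libraries (left of the vertical line) and the 8 H3K4me2 libraries (right of it). The wild-type H3K4me1 columns are fixed by the rule, and the KO EB columns show a peak in both lists at 12 regions and in neither at 5. Over all EB-only regions these shares are 20.1% and 53.5%.

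Some genes were nearest to many EB-only regions. Each region was given its nearest protein-coding gene, and 3126 of 21883 genes (14.3%) were nearest to at least 1, while 68 genes were nearest to 5 or more and together took 405 regions. The 5 with the most were Zfp608, with 11, Zfp521, with 10, and Maml3, Bach2 and Bcl11a, with 9 each. Tenm4 and Med13l also had 9 and are named after the counts were seen. The 11 regions nearest to Zfp608, a zinc finger gene, stretched over 1078 kb with none inside the gene. None of the 11 had an H3K4me2 peak in either wild-type ES list, where 16.4% and 14.8% of all EB-only regions had one. Of the 11, 10 had no H3K4me1 peak in either KO EB list, against 53.5% of all EB-only regions. Zfp608 was the nearest gene to 28 H3K4me1 regions of any kind and Zfp521 to 22. Zfp521 encodes a zinc finger factor that promotes neural differentiation of ES cells, and 8 of its 10 regions had no peak in either KO EB list.

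Maml3 encodes a Mastermind co-activator of Notch, and 8 of its 9 regions lay inside it, 5 with a peak in both KO EB lists. Its highest-ranked region (chr3:51963423-51967001) scored 172.82 and 77.85 in KO EB and 176.19 and 159.5 in wild-type EB. Bach2, a transcriptional repressor of lymphocytes, had 1 of 9 regions with a peak in both KO EB lists. Bcl11a, a zinc finger repressor of fetal globin genes with roles in cortical neurons, also had 1 of 9, and its regions reached over 1006 kb. Over all EB-only regions, 20.1% had a peak in both KO EB lists. A nearest gene is a position on the chromosome and not a known target of the region.

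Genes of signalling pathways and of the first embryonic lineages were more often nearest to an EB-only region than genes at large, and the same held for ES-only regions. Across 17 lists with 347 genes, 123 genes (35.4%) were nearest to an EB-only region and 130 (37.5%) to an ES-only region, against 14.3% and 18.1% of all protein-coding genes. Without the housekeeping and mature tissue lists, the shares of the remaining 315 genes were 37.1% and 40.6%. Housekeeping genes lay above all genes for EB-only regions, at 25%, and below them for ES-only regions, at 6.25%. The Hox and mature tissue lists, at 7.69% and 12.5%, lay below all genes for EB-only regions. A nearest-gene count also depends on how genes are spaced, whose part in these shares was not tested. The direct measure, an EB-only region within 2500 bp of a gene end, held for 29 of the 347 (8.36%), against 4.75% of all genes, and an ES-only region there held for 65 (18.7%), against 8.14%. Without the housekeeping and mature tissue lists it held for 24 of 315 genes (7.62%) with EB-only regions. The housekeeping list alone had 25%. The lists, including those of the signalling pathways, were written with earlier results known, so no test is given for them.

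**Figure D3:**
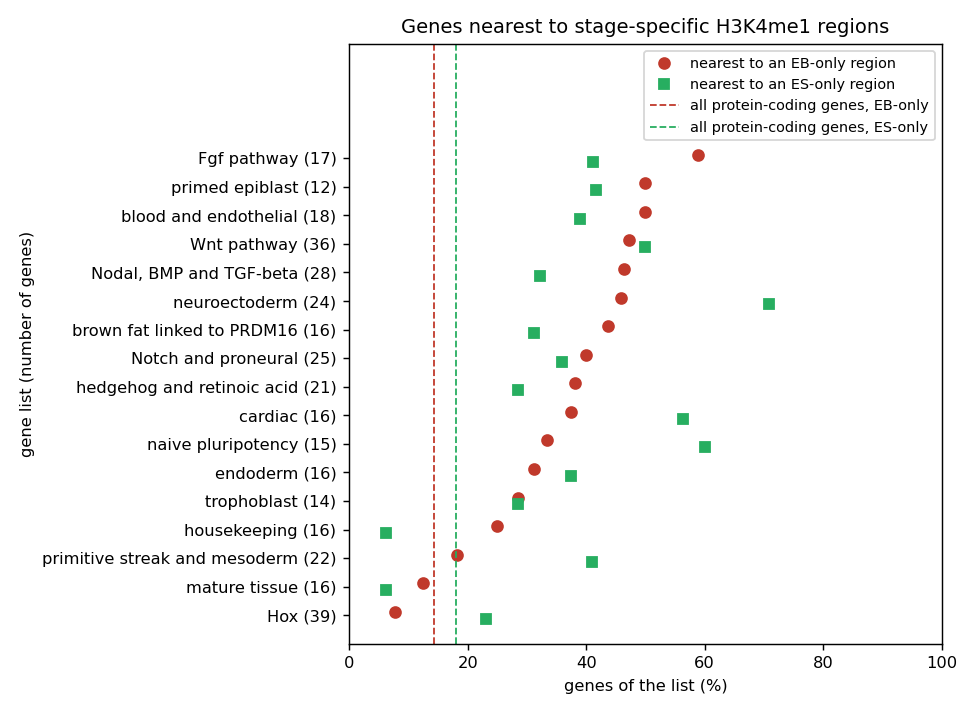
Share of the genes of each list (x axis, percent, with the number of genes in brackets) that were the nearest protein-coding gene to an EB-only region (circles) or an ES-only region (squares), with dashed lines for all protein-coding genes at 14.3% and 18.1%. The Fgf list lies farthest right for EB-only regions, at 58.8%, and the neuroectoderm list for ES-only regions, at 70.8%.

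Signalling and lineage lists were mixed at the upper end for EB-only regions. Behind the Fgf list (58.8%) came primed epiblast and blood and endothelial, at 50% each. Wnt (47.2%), Nodal, BMP and TGF-beta (46.4%) and neuroectoderm (45.8%) followed. In the Fgf list 10 of 17 genes were nearest to an EB-only region and 7 to an ES-only region. The counts for EB-only and ES-only regions were 13 and 9 of 28 for Nodal, BMP and TGF-beta, for Wnt 17 and 18 of 36, for Notch and proneural genes 10 and 9 of 25, and for hedgehog and retinoic acid 8 and 6 of 21. Several lineage lists had fewer genes for EB-only than for ES-only regions: neuroectoderm had 11 and 17 of 24, primitive streak and mesoderm 4 and 9 of 22, cardiac 6 and 9 of 16, naive pluripotency 5 and 9 of 15, endoderm 5 and 6 of 16, and Hox 3 and 9 of 39. Primed epiblast had 6 and 5 of 12, blood and endothelial 9 and 7 of 18, trophoblast 4 and 4 of 14, and brown fat genes linked to PRDM16 7 and 5 of 16. The list of genes of mature tissues had 2 and 1 of 16, and housekeeping genes 4 and 1 of 16.

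At gene ends the same lists thinned out. No neuroectoderm, Hox or brown fat gene had an EB-only region within 2500 bp of an end, against 5, 8 and 3 genes with an ES-only region there. These counts of 0 depended on single H3K4me1 libraries. Neuroectoderm had 4 without wild-type EB replicate 1 and 2 without replicate 2, Hox had 2 without wild-type EB replicate 2 and 1 without wild-type ES replicate 1, and brown fat had 1 without either of the last-named libraries. Wnt genes had 3 and 10, Fgf genes 2 and 6, and Nodal, BMP and TGF-beta genes 3 and 3. Housekeeping genes had 4 and 0, the 4 including Gapdh, Rps18 and Hsp90ab1, and the Gapdh region had no H3K4me2 peak in any of 8 lists.

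Ligands at gene ends were Wnt3a, Wnt2b and Fgf18. The Wnt3a region (chr11:59288129-59292292), which holds the promoter shown above, scored 74.89 and 63.83 for H3K4me1 in wild-type EB with no peak in KO EB. Its H3K4me2 scores were 95.7 and 115.45 in KO EB and 65.36 and 218.78 in wild-type EB, so H3K4me2 was called in all 4 EB lists while H3K4me1 was called only in wild type. Wnt2b, a Wnt ligand of the dorsal neural tube and foregut, had H3K4me1 scores of 56.49 and 97.53 in wild-type EB and no peak in KO EB. Fgf18, a ligand of skeletal and lung development, had H3K4me1 scores of 125.67 and 88.62 in KO EB and 130.46 and 107.54 in wild-type EB. It had H3K4me2 in all 8 lists.

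Receptors at gene ends included Bmpr2, Notch1, Kdr and Ptch1. The Bmpr2 region at the type II BMP receptor gene (chr1:59765339-59767303) scored 160.86 and 55.4 in wild-type EB with no H3K4me1 peak in KO EB, and had H3K4me2 in all 8 lists. Notch1 had 1 KO EB peak of 57.43, against 92.95 and 98.59 in wild-type EB. Its H3K4me2 was called in both wild-type EB lists and both KO ES lists (174.26 and 168.19). Kdr, the VEGF receptor of the endothelial lineage, had weak H3K4me1 (51.22 and 78.42 in wild-type EB, none in KO EB) on a site with H3K4me2 in all 8 lists. Ptch1, a hedgehog receptor, had a single KO EB peak of 51.95, against 127.6 and 94.05 in wild-type EB. At Ptch1, H3K4me2 was called only in the wild-type ES lists (142.77 and 188.51), and KO ES replicate 2 had an H3K4me1 peak of 60.65. Over all EB-only regions, 26.4% had an H3K4me1 peak in 1 KO EB list and 53.5% in neither.

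Transcription factors and pathway feedback genes followed no single pattern in KO EB. Dusp6, a phosphatase that Fgf signalling induces, scored 77.77 and 65.95 in KO EB and 69.94 and 85.89 in wild-type EB. Smad6, an inhibitor of BMP signalling, scored 108.68 and 67.9 in KO EB and 109.03 and 69.99 in wild-type EB. Id2 (65.38 and 63.01 in wild-type EB), Gli1, a hedgehog-responsive factor (91.55 and 84.78), and Sox3, a SOXB1 factor of epiblast and neural cells (98.15 and 64.16), had no H3K4me1 peak in KO EB. The Gli1 region did have H3K4me2 in both KO EB lists (163.12 and 79.22) and in 1 wild-type EB list (56.38). The Id2 region had H3K4me2 in 1 KO EB list (70.21), and the Sox3 region in none. Tcf15, a bHLH factor of primed epiblast and somites, had peaks of 55.18 and 69.1 in KO EB and 67.5 and 108.7 in wild-type EB. Snai1, a transcriptional repressor that drives EMT, had 1 peak of 57.91 in KO EB and scored 53.64 and 54.58 in wild-type EB. Its region also had an H3K4me1 peak of 56.83 in KO ES replicate 1.

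Nanog and Prdm14, factors of naive pluripotency, also had EB-only regions. On their list of 15 genes, 2 had an EB-only region at a gene end and 4 an ES-only one. With gene starts alone, 0 genes of this list had an EB-only region. At Nanog (chr6:122712412-122717705) H3K4me1 scored 221.47 and 76.29 in KO EB and 62.29 and 232.38 in wild-type EB, and H3K4me2 had 1 peak in KO EB, 1 in wild-type EB and none in ES cells. At Prdm14 (chr1:13124097-13129299) H3K4me2 was called in all 4 EB lists (206.3 and 150.41 in KO, 125.58 and 294.47 in wild type) and in no ES list. Peaks on these genes are not levels of their RNA, which was not measured in these libraries. Among lineage genes, Myh7 scored 173.77 and 83.93 in KO EB and 138.48 and 164.25 in wild-type EB. Krt7 scored 86.73 and 61.94 in KO EB and 58.04 and 71.4 in wild-type EB. Tnnt2, cardiac troponin T, and Tead4, a trophoblast factor, had no KO EB peak, while Foxa3, an endoderm factor, had 1. Of the 29 list genes with an EB-only region at an end, 7 kept a peak in both KO EB lists, 10 in 1 and 12 in neither. Of all regions in both wild-type EB lists, 24.5% had a peak in both KO EB lists.

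Where no gene of a list had an EB-only region at its ends, the 2 highest-ranked regions with such a gene as the nearest were taken. For neuroectoderm they lay 507927 bp from Pou3f2, a neural POU factor, and 242021 bp from Irx5, an Iroquois homeobox factor. The Irx5 region had an H3K4me1 peak in both KO EB lists (156.83 and 120.94) and the Pou3f2 region in 1 (50.58). For Hox, 1 lay 27812 bp from Hoxb1, an anterior gene that retinoic acid induces early. The Hoxb1 region (chr11:96396066-96398513) scored 87.98 and 154.93 in wild-type EB with H3K4me2 in both wild-type EB lists only, and no KO EB peak of either mark. For brown fat genes the regions lay inside Ppargc1a, a thermogenic co-activator, and 88202 bp from Ebf2, and neither had an H3K4me1 peak in KO EB. Of all EB-only regions, 53.5% had no H3K4me1 peak in either KO EB list.

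H3K4me2 lists were not used to choose the regions, and the stage difference of this mark was tested. An H3K4me2 peak overlapped 19.6% and 18.3% of EB-only regions in KO EB, 24.4% and 43.8% in wild-type EB, 19.4% and 21.9% in the KO ES libraries, and 16.4% and 14.8% in the wild-type ES ones. The 4 EB libraries ranged from 18.3 to 43.8% and the 4 ES libraries from 14.8 to 21.9%, so the stages overlapped. The mean was 26.5 ± 11.8% in EB and 18.1 ± 3.14% in ES cells (SD, n = 4 libraries each, both genotypes). The difference of 8.38 percentage points did not pass a two-sided exact permutation test over libraries (p = 0.171, adjusted p = 0.333 over the 4 planned tests). Much of it came from 1 library, wild-type EB replicate 2, which belongs to another library series by its title, and without it the difference was 2.64 points. Within KO alone EB minus ES was −1.69 points, and within wild type 18.5 points. It was −1.08 points with the higher-scoring 50% of peaks and 15.9 points with lists of equal length.

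EB-only regions were also set against the other 28694 H3K4me1 regions of the same library, a comparison that the rule itself shapes. The other regions had H3K4me2 in 23.7% and 22.1% (KO EB), 23.8% and 31.9% (wild-type EB), 47.1% and 51.1% (KO ES) and 43.5% and 39.96% (wild-type ES). The share of EB-only regions minus that of the others was −4.13, −3.72, 0.619 and 11.8 points in the EB libraries, in the same order, and −27.7, −29.2, −27.1 and −25.1 points in the ES libraries. No EB library overlapped an ES library in this measure. Means were 1.15 ± 7.44 points in EB and −27.3 ± 1.69 points in ES cells (SD, n = 4 each), a difference of 28.4 points. The exact permutation p was 0.0286, the smallest that 4 against 4 libraries can give, and after adjustment over 4 tests it was 0.114, which does not pass 0.05.

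The other regions, which include the ES-only ones, also differed between stages. Their H3K4me2 share was 20.1 points lower in EB than in ES cells (exact permutation p = 0.0286, a test added after the data were seen and outside the adjustment). Against the 1700 regions of all 4 lists, which hold no ES-only region, the difference between stages was 32.2 points. Those regions were chosen to have H3K4me1 in both wild-type ES lists, and EB-only regions to have it in neither. In wild-type ES cells their mean H3K4me2 shares were 74.3% and 15.6%, so this comparison is not independent of the rule. The H3K4me2 lists were also longer in ES cells than in EB.

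**Figure D4:**
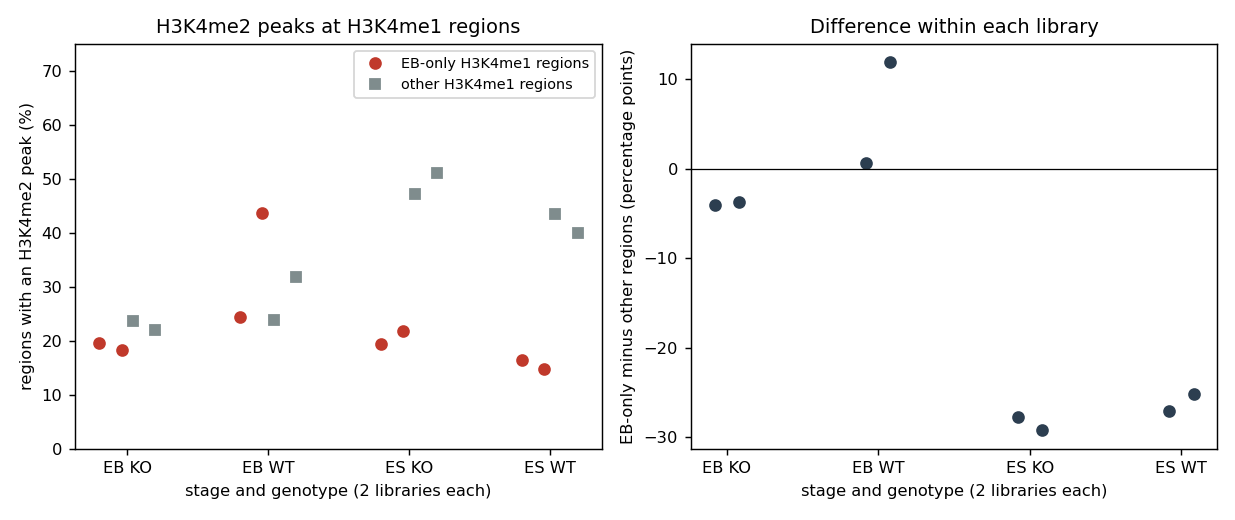
Left, percent of EB-only regions (circles) and of all other wild-type H3K4me1 regions (squares) with an H3K4me2 peak in each of 8 libraries; right, the difference between them in percentage points, one point per library. EB libraries lie between −4.13 and 11.8 points and ES libraries between −29.2 and −25.1 points.

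Position split the H3K4me2 result. At the 903 gene-end regions H3K4me2 was common at both stages, at 51.3% and 47.3% in KO EB, 49.6% and 61.2% in wild-type EB, 41.9% and 47.1% in KO ES and 43.6% and 40.1% in wild-type ES. At the 1792 regions between genes the shares were 11.5% and 11.2% in KO EB, 18.6% and 39.3% in wild-type EB, 14.7% and 16.4% in KO ES and 9.93% and 9.10% in wild-type ES. Regions inside genes resembled those between genes.

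In wild type, 494 EB-only regions (10.6%) had H3K4me2 in both EB lists and neither ES list, against 3.85% of all regions. Another 415 (8.87%) had H3K4me2 in all 4 wild-type lists, and 64.6% of these lay at gene ends. A further 2326 regions (49.7%) had no H3K4me2 peak in any of the 4 wild-type lists, against 45.5% of all regions. The 5 highest-ranked gene-end regions that had H3K4me2 in both wild-type EB and neither wild-type ES list were those of Serpinf1, Znrf2, Hnmt, a histamine-degrading enzyme gene, Slfn2, a Schlafen gene of lymphocyte quiescence, and Nectin1, a cell adhesion gene. At Hnmt (chr2:24047757-24049689) H3K4me1 scored 60.03 and 91.17 in KO EB and 232.73 and 167.54 in wild-type EB. Its H3K4me2 scored 69.38 and 228.33 in wild-type EB with no peak in KO EB. Slfn2 and Nectin1 likewise had no H3K4me2 peak in KO EB, while Znrf2 had 1 in both KO EB and both KO ES lists and Serpinf1 had 1 in replicate 2 of each.

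In KO EB, 940 EB-only regions (20.1%, 95% Wilson interval 18.97 to 21.3%) kept an H3K4me1 peak in both lists, 1236 (26.4%) in 1 list and 2502 (53.5%) in neither. By library the shares were 37.8% and 28.8%. Since the rule required a peak in both wild-type EB lists, a lower share in KO is fixed in direction by the choice and gets no test. Of the 7453 regions that both wild-type EB lists held, 24.5% kept a peak in both KO EB lists. The share was 34.7% (590 of 1700) among regions of all 4 wild-type lists, of which 34.8% had none in KO EB.

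Stronger regions kept their peak more often. In 5 groups of wild-type EB score rank, from weakest to strongest, the share with a peak in both KO EB lists was 8.96, 13.6, 16.8, 24.3 and 40.02% for EB-only regions and 18.4, 19.3, 28.8, 37.4 and 57.2% for regions of all 4 lists. EB-only regions were the lower set in each of the 5. In 5 groups of width, from narrow to wide, the shares were 8.29, 16.9, 23.7, 30.1 and 32.8% for EB-only regions, against 30.8, 24.3, 33.5, 33.5 and 40.6% for regions of all 4 lists. Width was added after the data were seen. H3K4me2 moved with it too: regions with H3K4me2 in both wild-type EB and neither ES list kept a peak in both KO EB lists in 32.0%, those with none in wild type in 13.2%. These groups also differed in width, with medians of 3515 and 2191.5 bp, and in score rank, with median percentiles of 65.7 and 39.4. A part of H3K4me2 beyond width and rank was not tested.

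**Figure D5:**
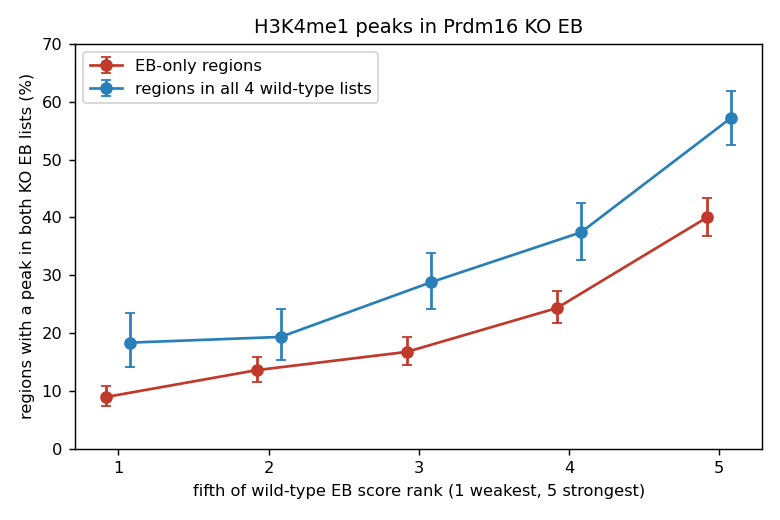
Percent of EB-only regions and of regions of all 4 wild-type lists with an H3K4me1 peak in both Prdm16 KO EB lists (y axis), by group of wild-type EB score rank (x axis, 1 weakest to 5 strongest). Bars are 95% Wilson intervals, which cover counting error only, and EB-only regions run from 8.96% to 40.02%.

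The stage pattern was also looked for inside the KO, whose lists the rule did not use. An H3K4me1 peak overlapped 37.8% and 28.8% of EB-only regions in KO EB, and 7.93% and 7.85% in KO ES cells. The means were 33.3 ± 6.32% in KO EB and 7.89 ± 0.0605% in KO ES cells (SD, n = 2 each), a difference of 25.4 points with no overlap. The exact permutation p was 0.333, the smallest that 2 against 2 libraries can give (adjusted p = 0.333), so this design cannot pass the threshold. Among the other regions the order was the reverse, with 14.8% and 10.3% in KO EB and 38.5% and 37.1% in KO ES cells. The rule took the EB-only regions out of that set, which in wild type had H3K4me1 in 30.8% (EB) and 48.8% (ES) on average. The reverse order is therefore no separate evidence. A peak in both KO EB and neither KO ES list was found at 781 EB-only regions (16.7%). The share of all regions with that pattern was not counted, so 16.7% is not shown to be particular to the set. A peak in both KO ES lists was found at 153 EB-only regions (3.27%), against 24% of all regions. That contrast is shaped by the rule, since all regions include those with wild-type ES peaks.

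H3K4me2 at EB-only regions was lower in KO EB, at 18.95 ± 0.862%, than in wild-type EB, at 34.1 ± 13.7% (SD, n = 2 each). The difference of −15.1 points had an exact permutation p of 0.333, the smallest possible, and was −5.44 points without wild-type EB replicate 2. No KO value overlapped a wild-type value. In ES cells the KO mean was the higher one, at 20.6 ± 1.74% and 15.6 ± 1.13% (SD, n = 2 each, difference 5.02 points, exact permutation p = 0.333). H3K4me2 was called in both KO EB lists at 631 EB-only regions (13.5%) and in both wild-type EB lists at 1015 (21.7%). The shares were 19.1% in KO and 22.2% in wild type for the other regions, and 39.4% in KO and 49.8% in wild type for regions of all 4 lists, so KO EB was lower in each set.

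PRDM16 peaks were rare in this set, as in H3K4me1 regions at large. They overlapped 3 and 3 EB-only regions in KO EB, 3 and 7 in wild-type EB, 6 and 11 in the KO ES libraries and 6 and 3 in the wild-type ES ones. In all, 34 EB-only regions (0.727%) had a PRDM16 peak in any of 8 lists, against 1.1% of all regions, 3 had one in 2 or more lists, and 0 in all 8. Regions of all 4 wild-type H3K4me1 lists had 60 (3.53%), of which 22 were in all 8 lists, KO included. PRDM16 lists held 146 to 586 peaks, which caps the number of overlaps.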

How the data were processed

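The 24 CUT&RUN libraries were analysed from 1 deposited peak list each, holding a position and a score per peak that the authors deposited with no unit stated. Per the submitters' processing notes, mm10 is the build, and the tools named, with no role, are HOMER 4.10, deepTools, MACS2, bedtools, SAMtools 1.5 and Bowtie2. Depth, control libraries and duplicate handling: not given in the sources used here. Peaks were merged where they overlapped by at least 1 bp. Genes were the 21883 protein-coding ones of RefSeq GRCm38.p6, without strand, of which 17491 had a promoter. Shares of regions were compared by two-sided exact permutation over libraries, with Benjamini-Hochberg adjustment over 4 tests. A further 8 tests of library shares were made, and 3 of genotype by stage, all added after the data were seen and outside that adjustment. The members, the 17 gene lists and the tests were chosen with earlier results of these data known. Named by rule were the 10 highest-ranked regions at gene ends and 10 elsewhere, up to 4 genes per list at gene ends (or 2 nearest genes), the 5 genes with most regions, and 5 gene-end regions with H3K4me2 in both wild-type EB and neither wild-type ES list. A few genes that this rule names are not reported here. Scripts ran in Python 3.11.15 with NumPy 2.4.6, pandas 2.3.3, SciPy 1.17.1 and statsmodels 0.14.6, and were tested on simulated data. Alternatives covered score cuts, list lengths, windows, coverage, merging, left-out libraries and the replicate block.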

Additional observations from a re-analysis of the deposited data

Results flagged for a closer look

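The KO minus wild-type difference in the H3K4me2 share of EB-only regions had opposite signs at the 2 stages, at −15.1 percentage points in EB and 5.02 points in ES cells. In EB both KO libraries lay below both wild-type libraries, and in ES cells both KO libraries lay above both wild-type libraries. The difference between the stages was −20.1 points (EB minus ES). An exact permutation of genotype within stage, added after the data were seen, gave p = 0.0556 over 36 assignments, the smallest it can give. The other H3K4me1 regions showed the same signs, at −4.97 points in EB and 7.38 points in ES cells, with a difference between stages of −12.3 points and the same exact permutation p of 0.0556. For the share of EB-only regions minus that of the other regions, the difference between stages was −7.80 points (exact permutation p = 0.389). The EB difference was −5.44 points without wild-type EB replicate 2, which with KO ES replicate 2 belongs to another library series among the H3K4me2 libraries.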

How the results depend on the processing

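No planned test passed 0.05 after adjustment, in the analysis as reported or under any alternative run. The difference in H3K4me2 share relative to the other regions kept its sign in all 21 alternatives, between 14.9 and 35.3 points, and was 32.2 points against regions of all 4 wild-type lists. Neither comparison set is independent of the rule. The plain EB minus ES difference of 8.38 points turned to −1.08 points with the higher-scoring 50% of peaks, and the cause was not tested, while with equal list lengths it was 15.9 points (exact permutation p = 0.0286, the smallest possible, adjusted p = 0.0571). The EB minus ES difference in KO H3K4me1 stayed between 15.3 and 38.1 points, and the KO minus wild-type difference in EB H3K4me2 between −24.8 and −3.78 points. The plain difference was 3.88 points without the other library series, which also brought the relative difference to 24.2 points and the KO minus wild-type difference in EB to −5.44 points. With the replicate number as a block the 4 differences stayed 8.38, 28.4, 25.4 and −15.1 points, with exact sign-flip permutation p of 0.375, 0.125, 0.5 and 0.5, the last 3 being the smallest that this block allows. The numbers come from the titles and are not stated to pair cultures. With the higher-scoring 50% of peaks, scores of at least 100 and equal list lengths, the number of EB-only regions was 2511, 1256 and 2224, since fewer peaks enter. Leaving out 1 library gave 5104 to 9787 regions, with 9135 and 9787 when wild-type EB H3K4me1 replicate 1 or 2 was left out, since the rule then asks for 1 EB list. The mean share with an H3K4me1 peak in a KO EB list, 33.3%, was 20.8% with scores of at least 100, 43.1% with equal list lengths and 25.03% when 50% of a region had to be covered, and 22.0 to 37.8% without 1 library. The gene-end share was 20.5% with the higher-scoring 50%, 21.7% with scores of at least 100, 21.0% with equal lengths, 20.5% with 50% covered, 14.7% and 31.1% with windows of 1000 and 10000 bp, 13.1% with gene starts alone, and 19.7 to 21.1% without 1 library. The 29 list genes at gene ends became 11, 7 and 11 under the 3 score and length settings, 54 at 10000 bp, 13 at gene starts, and 34 to 53 without 1 library. The 34 regions with a PRDM16 peak became 8, 2 and 11 under the 3 settings, 4 with 50% covered, and 25 to 59 without 1 library. Of the 61 named regions, 41 stayed EB-only with the higher-scoring 50%, 35 with scores of at least 100 and 40 with equal lengths. Read depth is unknown, and a peak near the score of 50 in one list may be just under it in another.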
